A study of Mus musculus with 2 samples.

Results

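The activator protein 1 (AP-1) and Batf family genes were followed at the level of messenger RNA in 2 single-cell libraries of mouse Tc17 cells, which are CD8 T cells cultured to make interleukin-17. The members are defined by gene symbol, a choice made with earlier results of these data known: Fos, Fosb, Fosl1, Fosl2, Jun, Junb, Jund, Batf and Batf3. All 9 were found among the 32285 genes of both libraries. The CD8 T cells were bead-isolated from mesenteric lymph nodes of C57/B6N mice, driven towards the Tc17 state with a commercial Th17 cytokine and antibody kit, and, in both groups, stimulated with 100 ng/ml PMA plus 10 μg/ml ionomycin over 3 h before harvest. The control library came from mice labelled wild type and the other from mice labelled Nfatc1 f/f × Cd4-Cre. The Cd4 promoter switches Cre on during thymic development, so deletion was meant for T cells, CD8 T cells included, and not for CD8 T cells alone. No source used here names the deleted exons or how many mice went into a library.

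AP-1 is a dimer of basic leucine zipper proteins. JUN proteins bind DNA as pairs with each other or with FOS proteins, whereas FOS proteins need a JUN partner. BATF and BATF3 lack a transactivation domain, pair with JUN proteins, and bind composite DNA elements together with the interferon regulatory factors IRF4 and IRF8. In T cells PMA acts through protein kinase C and the RAS-MAP kinase cascade, which induces and phosphorylates FOS and JUN, while ionomycin raises calcium and activates NFAT. NFAT and AP-1 bind neighbouring sites in cytokine genes such as Il2. BATF and JUNB are known as factors needed for interleukin-17-producing T helper cells, and BATF3 is known for its part in CD8 T-cell memory and in the development of cross-presenting dendritic cells.

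After filtering, the library labelled wild type held 1018 cells and 24452538 unique molecular identifiers (UMIs, each standing for 1 captured transcript), and the other held 709 cells and 17898193 UMIs. Median depth was 20906 and 21436 UMIs per cell. Nfatc1, the targeted gene, went against its label: it was 3.42-fold higher in the library labelled deficient (136 CPM, that is UMIs of the gene scaled to a common library total) than in the library labelled wild type (39.8 CPM). For this reason the text writes WT-labelled for the library labelled wild type and Cre-labelled for the library labelled Nfatc1 f/f × Cd4-Cre, and each direction rests on those labels. Whether the UMIs of Nfatc1 lie inside or outside the deleted part was not tested. With 1 library per genotype there is no replicate check and no p-value, and the 95% intervals cover counting error only, not the spread between cells, cultures or mice. The CD8 T-cell label fits the markers: Cd8b1 was detected in 96.6% and 96.5% of cells and Cd4 in 0.295% and 0.564%. Marker lists of other cell types summed to 47.5 and 36.9 CPM for B cells (8 genes), 3.44 and 3.52 for myeloid cells (10), 9.37 and 7.32 for dendritic cells (8), and 4.17 and 2.29 for natural killer cells (6). Ighm, an immunoglobulin gene, was seen in 19.7% and 28.9% of cells and Ebf1 in 9.14% and 4.37%. Cd68 was seen in 5.30% and 5.22% of cells and Klre1 in 4.62% and 2.96%. C1qa, C1qb, Clec9a, Siglech, Ncr1 and Klrb1c were at 0 in both libraries. The part of other cell types in the results was not tested. Each library was led by a single sample-multiplexing tag, the 2 differing, and no cell barcode was shared.

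The stretches upstream of 4 member genes are shown because these are the classic signal-induced genes of the family and carry letters of the CRE/ATF motif that ATF, CREB and JUN dimers bind. The bases come from RefSeq on GRCm38.p6 (the mm10 build), run 5′ to 3′ on the gene's own strand and end just before its annotated exon. Capitals mark TGACG, the first letters of the CRE palindrome TGACGTCA, or the variant TGACATCA. The regions are chr12:85473640-85473889 (plus strand, Fos), chr7:19310052-19310295 (minus strand, Fosb), chr8:84978749-84978998 (minus strand, Junb) and chr4:95052223-95052472 (minus strand, Jun).
Fos: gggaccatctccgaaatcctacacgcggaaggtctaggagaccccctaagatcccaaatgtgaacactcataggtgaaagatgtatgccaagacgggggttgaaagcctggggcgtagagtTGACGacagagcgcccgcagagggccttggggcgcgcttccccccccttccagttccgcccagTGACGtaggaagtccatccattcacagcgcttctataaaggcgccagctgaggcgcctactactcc
Fosb: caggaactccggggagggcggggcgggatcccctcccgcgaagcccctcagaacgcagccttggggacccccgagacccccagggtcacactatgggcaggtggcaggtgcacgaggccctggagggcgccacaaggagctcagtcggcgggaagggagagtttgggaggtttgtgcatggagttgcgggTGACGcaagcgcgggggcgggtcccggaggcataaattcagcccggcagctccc
Junb: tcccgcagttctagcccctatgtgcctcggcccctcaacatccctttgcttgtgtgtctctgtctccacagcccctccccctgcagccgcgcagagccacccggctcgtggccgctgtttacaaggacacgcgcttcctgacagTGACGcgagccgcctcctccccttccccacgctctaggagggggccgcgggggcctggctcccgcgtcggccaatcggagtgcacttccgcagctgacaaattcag
Jun: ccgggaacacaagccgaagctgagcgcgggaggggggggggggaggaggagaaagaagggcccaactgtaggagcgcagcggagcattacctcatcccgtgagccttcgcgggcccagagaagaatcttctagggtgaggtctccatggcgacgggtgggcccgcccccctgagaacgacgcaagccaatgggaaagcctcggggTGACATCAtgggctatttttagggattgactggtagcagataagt
RefSeq windows of 300 bases (250 before the start site and 50 after it) were matched for 8 of the 9 members. Searched on both strands, TGACG lay in 4 of the 8 (Fos, Fosb, Junb and Batf), against 17.8% of all 32851 such windows. That motif was chosen after the sequences had been read. Fos holds it at 129 to 125 and at 66 to 62 bases upstream of its start, Fosb at 60 to 56, Junb at 106 to 102 and Batf at 98 to 94. TGACATCA, which does not contain TGACG, was found in Jun alone of the members, 45 to 38 bases upstream, and in 2.93% of all windows. The AP-1 palindrome TGANTCA was in 0 of the 8 windows (6.75% of all), the full TGACGTCA in 0 (1.55%), the serum response CArG box in 0 (1.47%) and the NF-kB motif GGACTTTCC in 0 (0.283%). The core of NFAT sites, GGAAA, was in 3 of the 8 (Batf3, Jun and Batf), against 55.6% of all windows. These windows are not all upstream sequence: annotated exons cover all 250 upstream bases for Fosl2 and 163 for Batf3, and the RefSeq start used for Jund lies upstream of the Jund coordinates given further on. A match describes letters only, and the absence of one says nothing of elements outside the window.

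Between the libraries, Batf3 was the member that stood apart. It was lower in the Cre-labelled cells, at 13.6 CPM (244 UMIs) against 78.1 CPM (1910 UMIs), a 5.73-fold difference (95% counting interval 5.01 to 6.57). The 3 Jun genes and Batf were also lower there, by smaller folds, while Fos, Fosb and Fosl2 were higher. A gene counted as apart when it reached 20 CPM in either library and its ratio, with 1 CPM added to both levels, was 2-fold or more, and 1 of the 9 members met that rule of size. Of all 5584 genes reaching 20 CPM, 4.35% were past the rule in either direction, 2.27% higher and 2.08% lower. The median log2 ratio (Cre-labelled minus WT-labelled) was -0.22 over the 9 members and 0.035 over all those genes.

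**Figure D1:**
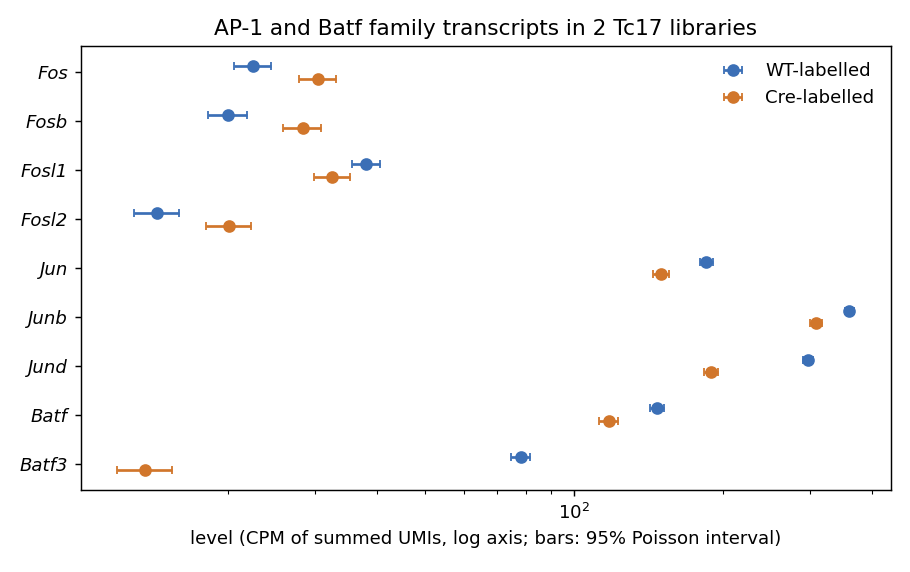
Level of each member in each library, in CPM of summed UMIs on a log axis, with 95% Poisson intervals that cover counting error only. Batf3 lies far apart in the 2 libraries (78.1 and 13.6 CPM), whereas the other 8 members lie within 2-fold of each other.

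The Jun family supplies the obligate partners of AP-1. Junb (chromosome 8, 84974484 to 84978718, mm10) stood at 360.0 CPM in the WT-labelled and 308 CPM in the Cre-labelled library, 1.17-fold lower in the latter (interval 1.13 to 1.21). Jun (chromosome 4, 95049034 to 95052222), the founding member, stood at 185 and 150.02 CPM, 1.24-fold lower (1.18 to 1.30). Jund (chromosome 8, 70698949 to 70700616), which is made in resting cells too, showed the widest gap of the family, 297 against 189 CPM, 1.57-fold lower (1.51 to 1.64). Each of the 3 was thus lower in the Cre-labelled library by more than counting error and by less than 2-fold. Summed, the Jun family took 842 and 648 CPM.

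The Fos family went the other way for 3 of its 4 genes. Fos (chromosome 12, 85473890 to 85477273), the prototype immediate early gene, was at 22.5 CPM in the WT-labelled and 30.4 CPM in the Cre-labelled library, 1.35-fold higher (1.20 to 1.53). Fosb (chromosome 7, 19302696 to 19310051), another immediate early gene, was at 19.998 and 28.3 CPM, 1.42-fold higher (1.25 to 1.61). Fosl2 (chromosome 5, 32135801 to 32157842), which encodes FRA-2, was at 14.4 and 20.1 CPM, 1.40-fold higher (1.20 to 1.62). Fosl1 (chromosome 19, 5447547 to 5455946), which encodes FRA-1, was at 38.1 and 32.5 CPM, 1.17-fold lower (1.06 to 1.30). None of these 4 reached 2-fold, and together they took 94.96 and 111 CPM, so transcripts of the family were few beside those of the Jun genes. UMIs are counted at the 3′ end of transcripts, so no length scaling was applied to these sums.

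Batf and Batf3 differed from each other. Batf (chromosome 12, 85686669 to 85709087) was at 148 CPM in the WT-labelled and 118 CPM in the Cre-labelled library, 1.25-fold lower (1.19 to 1.32). Batf3 (chromosome 1, 191097847 to 191108945) made up 6.72% of all member UMIs in the WT-labelled library and 1.53% in the Cre-labelled library. All 9 members together took 0.116% and 0.0890% of UMIs. Removing the UMIs of 15 cytokine and effector genes from the library totals moved the median of all genes to 0.12, a shift of scale that leaves the Batf3 log2 ratio at -2.36 beside -2.43.

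To compare single cells, they were thinned at random to 5000 UMIs, which left 1004 and 698 cells. At that depth Batf3 was detected in 16.3% of WT-labelled cells (interval 14.1 to 18.8) and in 2.87% of Cre-labelled cells (1.76 to 4.39). Unthinned, the shares were 35.9% and 11.6%, and 5 of the 9 members were detected in most WT-labelled cells (Fosl1, Jun, Junb, Jund and Batf). Jund was detected in 62.5% and 49.3% of thinned cells, and Fos in 2.99% and 7.74%. For these 3 genes the intervals of the 2 libraries did not overlap, as for 20.9% of the 5584 genes. For the other 6 they did: Junb at 72.3% and 66.8%, Jun at 50.8% and 47.9%, Batf at 39.9% and 35.5%, Fosl1 at 17.3% and 15.2%, Fosb at 7.77% and 11.0%, and Fosl2 at 7.77% and 9.74%. Unthinned, 6 members had separate intervals, with Fosl1 and Batf lower and Fosl2 higher in the Cre-labelled cells besides the 3 named, against 28.1% of all genes. A thinned cell held a median of 3 different members in the WT-labelled and 2 in the Cre-labelled library, with a range of 0 to 7 in each. No cell type that should lack these genes was present, so the share that free RNA can give was not measured.

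Fos transcripts sat in very few cells. In the WT-labelled library 4 of the 1018 cells (0.393%) carried 188, 139, 40 and 29 Fos UMIs, which was 72.1% of all Fos UMIs. In the Cre-labelled library 4 of 709 cells (0.564%) carried 144, 66, 39 and 32, or 51.7%. These are the cells with at least 25 Fos UMIs, a cutoff set after the values had been seen. They held 0.207% and 0.289% of all UMIs of their library. The same cells held 13.7% and 20.9% of the Fosb UMIs, 11.0% and 11.5% of those of Egr1, another immediate early gene, and 5.83% and 5.79% of those of Nr4a1, an early gene of receptor signalling. None of them was called a doublet, and none had a Batf3 UMI. All 8 were below the median depth of their library, at 9858 to 19881 UMIs. Mitochondrial shares were 4.93% to 7.30% in 6 of them, beside medians of 3.17% and 2.69% in the 2 libraries, and 1 Cre-labelled cell had no UMI of the T-cell genes Cd3e and Trac. The part of depth and quality was not tested. In 7 of the 8, Il17a, Ifng and Il2 were nearly silent, with at most 4 UMIs each, whereas 1 WT-labelled cell had 182 UMIs of Il17a. Tnf stood at 13, 9, 4 and 1 UMIs in the Fos-rich WT-labelled cells and at 23, 1, 3 and 20 in the Fos-rich Cre-labelled cells. Without these cells Fos stood at 6.27 against 14.7 CPM, 2.35-fold higher in the Cre-labelled library (1.92 to 2.89), so the direction was kept while the fold moved from 1.35.

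**Figure D2:**
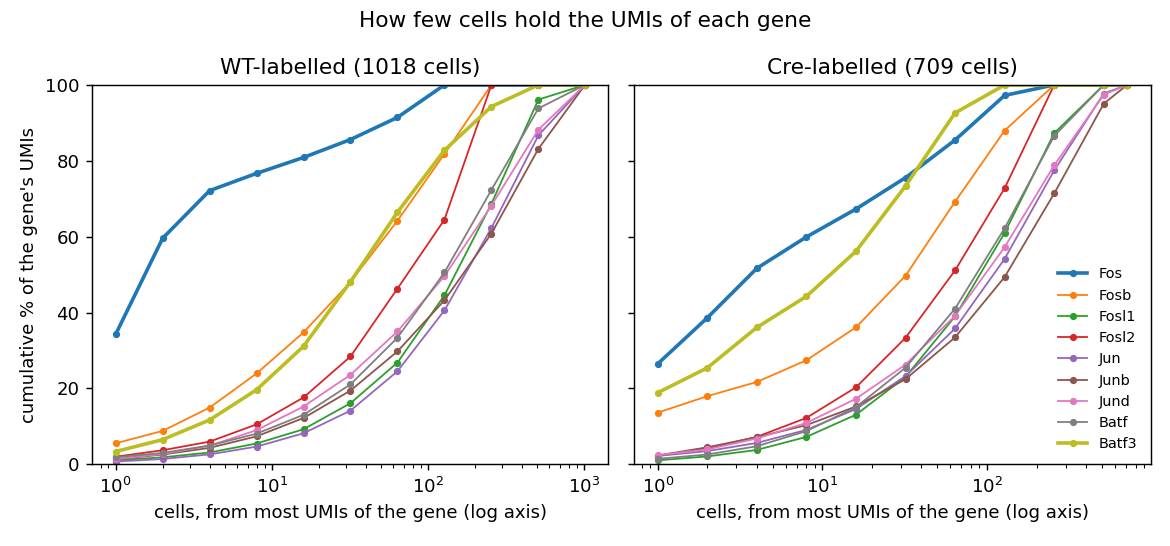
Cumulative percentage of a gene's UMIs (vertical axis) held by the cells richest in that gene (horizontal axis, number of cells, log scale), for each member in each library. The Fos line is steepest, with 72.1% and 51.7% of its UMIs in 4 cells, and the Batf3 line is steeper in the Cre-labelled than in the WT-labelled library.

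Other members were spread more evenly. The 10 cells richest in Jun held 5.58% and 10.5% of its UMIs, and the 10 richest in Junb held 8.63% and 11.7%. Batf3 lay between these and Fos: its 10 richest cells held 22.8% of its UMIs in the WT-labelled library, and 47.5% in the Cre-labelled library, where the gene was detected in 82 cells. Batf3 values of the Cre-labelled library therefore rest on few cells, and 2 cells alone held 25.4% of its UMIs.

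Co-expression with cytokines was read within each library by setting cells with at least 5 thinned UMIs of a cytokine (cytokine-high) against cells with fewer (cytokine-low), at levels per 10000 UMIs. Cytokines with at least 50 cells on both sides were used, 8 in the WT-labelled library (Il17a, Il17f, Ifng, Il2, Tnf, Ccl3, Ccl4 and Xcl1) and the same plus the granule protease gene Gzmb in the Cre-labelled library. Where members were at least 1.5-fold apart they were mostly lower in cytokine-high cells, unevenly by gene. Among members of at least 20 CPM, 21 of 56 member-cytokine pairs in the WT-labelled library were at least 1.5-fold apart, 6 of them higher and 15 lower in cytokine-high cells. In the Cre-labelled library 37 of 72 pairs were, 6 higher and 31 lower. Of the 15 lower WT-labelled pairs Fos gave 5, Jun and Batf3 3 each, Jund 2, Junb and Batf 1 each and Fosl1 0. Of the 31 lower Cre-labelled pairs Fos and Fosb gave 8 each, Jund 6, Jun 5, Junb 3, Fosl2 1, and Fosl1 and Batf 0. Pooled over the same cytokines, 2.45% of gene-cytokine pairs of all genes were higher and 8.39% lower in the WT-labelled library, and 3.81% and 12.8% in the Cre-labelled library. Leaving out the 4 Fos-rich cells brought the 37 down to 24, and the share over all genes without those cells is not given. In 5 of the 72 pairs measured in both libraries the ratios had opposite signs with both intervals clear of no difference, beside 0.938% of such pairs over all genes. Those 5 include Fos and Fosb with Ccl3, which rest on few cells. Pairs of 1 gene share cells and are not independent of each other.

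**Figure D3:**
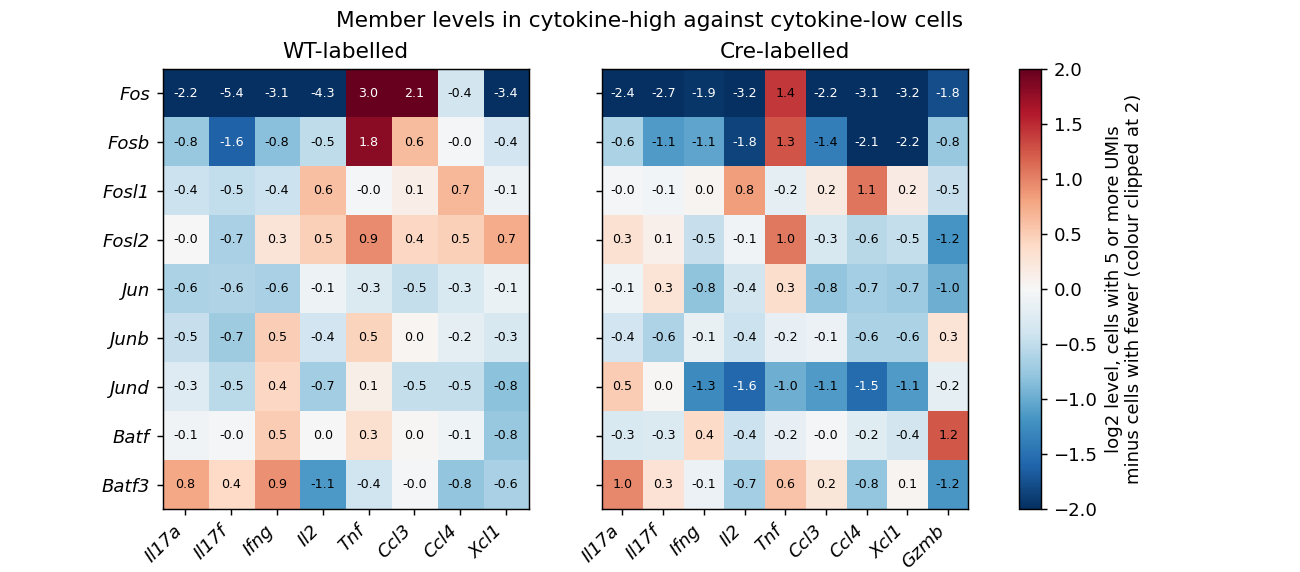
Log2 ratio of each member's level in cells with at least 5 UMIs of a cytokine to its level in cells with fewer (columns, cytokine or effector genes), in the 2 libraries, with colours clipped at 2. Jund has negative ratios for Il2, Ccl4 and Xcl1 in both libraries, Fosl1 is higher in Il2-high and Ccl4-high cells of both, and the Fos row rests on few cells.

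Jund was lower in each richer Il2 bin of both libraries. In WT-labelled cells it went from 3.96 per 10000 UMIs in cells with no Il2 UMI through 3.33, 2.63 and 2.27 to 1.61 in cells with at least 100. In Cre-labelled cells it went from 4.17 through 4.07, 1.85 and 1.34 to 0.849. Il2-high cells had 1.62-fold less Jund than Il2-low cells in the WT-labelled library (interval 1.46 to 1.81) and 2.98-fold less in the Cre-labelled library (2.57 to 3.46). For all genes, 9.08% and 15.4% were lower by at least 1.5-fold in Il2-high cells. Across cells Spearman's rho of Jund with Il2 was -0.21 over 1004 cells and -0.35 over 698 cells, as a description of cells that share a library and a depth. Jund was lower in Xcl1-high cells too (log2 ratio -0.81 and -1.13), beside backgrounds of 6.13% and 14.2%. With Ccl4 its log2 ratio was -0.47 in WT-labelled cells, short of 1.5-fold, and -1.53 in Cre-labelled cells, where 20.1% of genes were lower. Total UMIs moved with these groups in the Cre-labelled library, where Il2-high cells had a median of 22237 UMIs and Il2-low cells 19435, and their part in the result was not tested.

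Batf3 was lower in Il2-rich cells of the WT-labelled library as well. In the WT-labelled library it stood at 0.391 per 10000 UMIs in Il2-high and 0.88 in Il2-low cells, 2.25-fold less (1.77 to 2.87). By Il2 content its level was 1.41 in cells with no Il2 UMI, 0.434, 0.57 and 0.348 in the middle bins and 0.225 in the richest, so most of the drop lay at the first step. The Cre-labelled library held 22 thinned Batf3 UMIs, too few for such bins. Il2-high and Il2-low cells there held 14 and 8 of them, a ratio of 0.586 with an interval (0.229 to 1.61) that includes no difference. From the unthinned Batf3 UMIs of that library, 150 in Il2-high and 93 in Il2-low cells, the log2 ratio was -1.04. That value has no interval here, and 1 cell alone held 46 of the 244 Batf3 UMIs of the library.

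With Il17a, the signature cytokine of Tc17 cells, Batf3 was higher in the cytokine-high cells. In the WT-labelled library its level was 0.706 per 10000 UMIs in Il17a-high cells and 0.407 in Il17a-low cells, 1.73-fold more (1.33 to 2.28), where 2.55% of 5289 genes were at least 1.5-fold higher. The order was not regular by Il17a content: 0.54, 0.233, 0.423, 0.861 and 0.589 from none to the richest cells. In the Cre-labelled library the thinned counts were 9 and 13 UMIs, a ratio of 2.15 with an interval of 0.811 to 5.44 that includes no difference, beside a background of 5.91% higher. Among cells called G1 the WT-labelled log2 ratio was 0.16 beside 0.78 in all cells, and with a cutoff of 1 UMI it was 0.17. Depth moved with the groups here: Il17a-high cells had a median of 22225 UMIs and Il17a-low cells 18271, and Spearman's rho of Batf3 with total UMIs was 0.25 across WT-labelled cells. Their part in the result was not tested. With Ifng, Batf3 stood at 1.04 per 10000 UMIs in high and 0.547 in low cells of the WT-labelled library, 1.91-fold more (1.37 to 2.60), where 3.33% of genes were at least 1.5-fold higher. In Cre-labelled cells its counts were 9 and 13 UMIs for Ifng too, here a ratio of 0.913 (0.344 to 2.31). Ifng-high cells were deeper in the WT-labelled library, with a median of 24625 UMIs against 20835, and the part of depth was not tested.

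**Figure D4:**
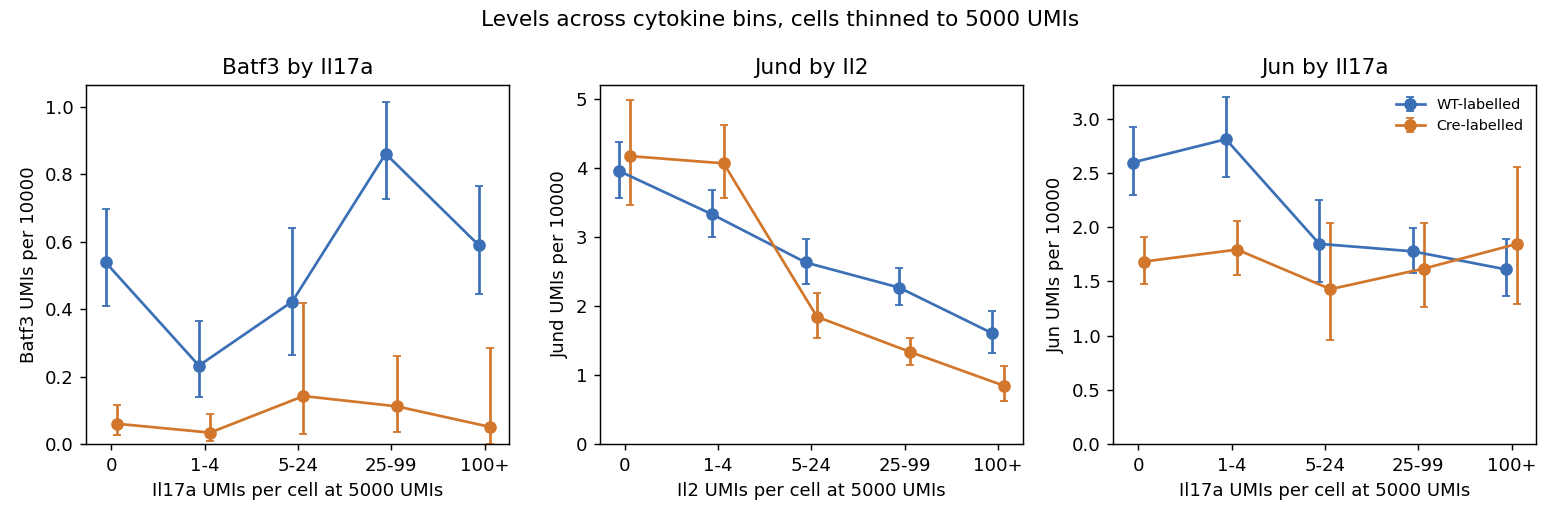
Level per 10000 UMIs (vertical axes) of Batf3 by Il17a content, Jund by Il2 content and Jun by Il17a content, in cells thinned to 5000 UMIs, with 95% Poisson intervals. Jund is lower in each richer Il2 bin of both libraries, Batf3 is lower in the Cre-labelled library in every Il17a bin and Jun has its 2 highest values in WT-labelled cells with fewer than 5 Il17a UMIs.

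Jun was lower in Ifng-high cells of both libraries, at 1.38 against 2.17 per 10000 UMIs in the WT-labelled library (1.57-fold less, 1.22 to 2.05) and 1.19 against 2.10 in the Cre-labelled library (1.76-fold less, 1.48 to 2.11). Of all genes, 14.1% and 14.9% were as far down in Ifng-high cells, so this direction was common. With Il17a its log2 ratio was -0.63 in WT-labelled cells, where 2.99% of genes were at least 1.5-fold lower, and -0.09 in Cre-labelled cells. Junb was at least 1.5-fold lower in Il17f-high cells of both libraries (log2 ratio -0.71 and -0.61), where 4.35% and 2.98% of genes were. Batf had 1 pair past 1.5-fold in each library. Its smaller differences included 1.42-fold (1.12 to 1.77) and 1.31-fold (1.07 to 1.60) more in Ifng-high cells and 1.35-fold (1.08 to 1.67) less in Il2-high cells of the Cre-labelled library. Past 1.5-fold, it was lower in Xcl1-high cells of the WT-labelled library (log2 ratio -0.76, with the same 6.13% of genes lower) and higher in Gzmb-high cells of the Cre-labelled library. That last pair was 2.37 against 0.992 per 10000 UMIs, 2.39-fold more (1.88 to 3.02), where 4.51% of genes were as far up. The Gzmb-high cells numbered 81 and were deeper, with a median of 28835 UMIs against 21002, and the part of depth was not tested.

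In the Fos family, Fosl1 was higher in Ccl4-high cells, at 0.511 against 0.319 per 10000 UMIs in the WT-labelled library (1.60-fold, 1.20 to 2.16) and 0.366 against 0.169 in the Cre-labelled library (2.16-fold, 1.13 to 4.63). Of all genes 1.64% and 6.51% were at least 1.5-fold higher there. It was also higher in Il2-high cells, 1.54-fold (1.15 to 2.09) and 1.82-fold (1.10 to 3.20), where 2.08% and 3.91% of genes were. With cells thinned to 2500 UMIs the Il2 ratio came to -0.024 and -0.17 on the log2 scale, so that pair does not hold at the lower depth. Fosl2 was higher in Tnf-high cells, 1.98-fold (1.06 to 3.48) and 2.13-fold (1.27 to 3.47), beside backgrounds of 3.06% and 1.55%. In the WT-labelled library Fosl2 stood at 14.4 CPM, with 15 UMIs in Tnf-high cells, whereas the background covers genes of at least 20 CPM. At a cutoff of 1 Tnf UMI the WT-labelled log2 ratio of Fosl2 was -0.16.

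Fos and Fosb were lower in most cytokine-high groups and higher in Tnf-high cells. Fos was at least 1.5-fold lower for 5 of 8 cytokines in the WT-labelled library and 8 of 9 in the Cre-labelled library, and Fosb for 3 of 8 and 8 of 9. Pooled over the cytokines used, 8.39% and 12.8% of gene-cytokine pairs of all genes were lower by as much. Fosb, at 19.998 CPM in the WT-labelled library, falls below the 20 CPM limit and is not among the 56 pairs counted there. Against Il17f, for example, Fosb stood at 0.165 and 0.526 per 10000 UMIs in high and low cells of the WT-labelled library, and at 0.231 and 0.518 in those of the Cre-labelled library. Of all genes, 4.35% and 2.98% were at least 1.5-fold lower in Il17f-high cells. Without the Fos-rich cells the log2 ratios of Fosb with Il17f were -0.92 and -0.56 instead of -1.61 and -1.13. In Tnf-high cells Fosb was 3.61-fold (2.38 to 5.37) and 2.44-fold (1.70 to 3.47) higher, where 3.06% and 1.55% of genes were at least 1.5-fold higher. Its log2 ratios with Tnf were 1.22 and 0.69 without the Fos-rich cells instead of 1.81 and 1.26. The Fos ratio with Tnf went from 3.00 to -0.20 in the WT-labelled library and from 1.42 to 1.12 in the Cre-labelled library when those cells were left out. Fos ratios to cytokines in the WT-labelled library are thus values of a handful of cells. In the Cre-labelled library all Fos-rich cells were low in Il17a, Ifng and Il2. The share of thinned cells there with a Fos UMI was 7.64% in Ifng-high and 7.81% in Ifng-low cells, and 6.31% and 12% for Il2. For Fosb it was 11.0% and 11.1% with Ifng, and 10.3% and 13.1% with Il2. The 8 of 9 was not counted again without the Fos-rich cells.

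Since the libraries differ in cytokine make-up, levels were also compared among cells of like content. Cells were classed as at or above 5 thinned UMIs (+) or below (-) for Il17a, Ifng and Il2. In the 3 classes with at least 50 cells in both libraries Batf3 was lower in the Cre-labelled cells each time. In Il17a+ Ifng- Il2+ cells (372 and 93) it stood at 0.398 and 0.043 per 10000 UMIs, the latter from 2 UMIs, a ratio of 9.25 (2.47 to 77.8). In Il17a- Ifng- Il2+ cells (157 and 160) it stood at 0.204 and 0.0375, a ratio of 5.44 (1.56 to 29.1). In Il17a- Ifng- Il2- cells (174 and 101) it stood at 0.563 and 0.0792, a ratio of 7.11 (2.61 to 27.1). Of all genes, 3.49%, 4.05% and 2.67% were at least 2-fold lower in these classes. Within the WT-labelled library Batf3 stood at 1.39 in Il17a+ Ifng+ Il2+ cells (33 cells), 1.06 in Il17a+ Ifng- Il2- cells (207) and 0.952 in Il17a- Ifng+ Il2- cells (21), with intervals that overlapped. In Il17a- Ifng+ Il2+ cells (26) it stood at 0.154 from 2 UMIs, and that interval (0.0186 to 0.556) overlapped those of the other 2 Il2+ classes with Ifng-.

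**Figure D5:**
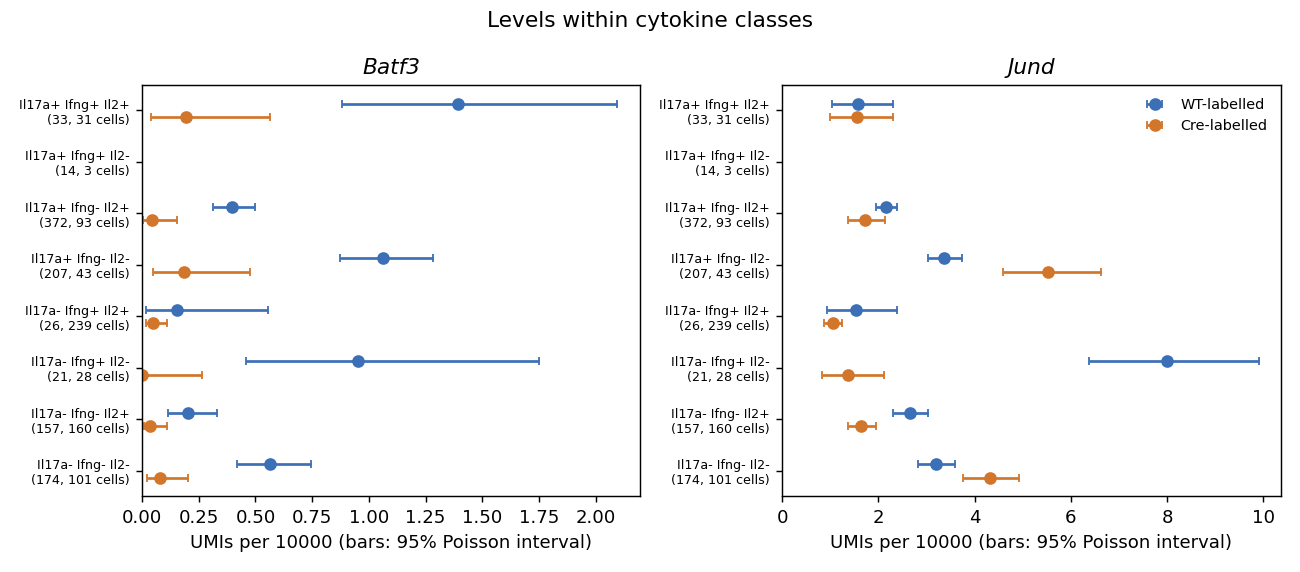
Levels per 10000 UMIs of Batf3 and Jund (horizontal axes) in cells classed by Il17a, Ifng and Il2, with the number of cells in the WT-labelled and Cre-labelled library under each name and 95% Poisson intervals; a class with fewer than 20 cells in a library has no points. Batf3 has lower values in the Cre-labelled library in every class drawn, with intervals that overlap among Il17a- Ifng+ Il2+ cells. Jund is lower in some classes and higher in others.

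Of the other 8 members, Fos and Fosl2 had higher values and Fosl1 and Jun lower values in the Cre-labelled cells of all 3 classes, each with an interval that included no difference in at least 1 class. Fosb, Junb, Jund and Batf had ratios on both sides of 1. Jund was lower in the Cre-labelled cells among Il17a- Ifng- Il2+ cells (2.65 against 1.64 per 10000 UMIs, 1.62-fold, 1.29 to 2.03) but 1.35-fold higher (1.13 to 1.62) among Il17a- Ifng- Il2- cells. The classes also differed in size: Il17a- Ifng+ Il2+ cells, where Jund was low (1.54 and 1.05), made up 2.59% of the WT-labelled and 34.2% of the Cre-labelled library. Batf was lower in the Cre-labelled cells of both Il2+ classes, 1.55-fold (1.11 to 2.22) and 1.78-fold (1.29 to 2.47), with a log2 ratio of 0.10 among Il17a- Ifng- Il2- cells. Fosb was 2.43-fold higher (1.66 to 3.57) in Cre-labelled Il17a- Ifng- Il2- cells, where 5.5% of genes were at least 2-fold higher. That ratio comes from 69 thinned Fosb UMIs in the Cre-labelled and 49 in the WT-labelled cells. All 4 Fos-rich Cre-labelled cells fall in this class, with 69, 22, 8 and 7 Fosb UMIs before thinning. The Fos-rich WT-labelled cells, except the 1 rich in Il17a, fall in it too, so the ratio rests in part on a few cells. Fos was 7-fold higher in Il17a+ Ifng- Il2+ cells, but from 4 and 7 UMIs (1.78 to 32.6), against 5.43% of all genes.

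By cell cycle phase, Fos, Fosb, Junb, Jund and Batf3 had their highest values in cells called G2M in both libraries, though not all of these differences exceeded counting error. Batf3 in the WT-labelled library went from 0.446 per 10000 UMIs in G1 (565 cells) to 0.654 in S (260) and 0.972 in G2M (179), and the G1 and G2M intervals did not overlap. In the Cre-labelled library it stood at 0.0683, 0.0291 and 0.122, with G1 and G2M intervals that overlapped. Jund stood at 2.56, 2.98 and 3.33 in the WT-labelled and 1.78, 2.0 and 3.61 in the Cre-labelled library. Junb stood at 3.104, 3.43 and 4.39, and at 3.08, 2.77 and 4.37. Among G1 cells alone the Batf3 log2 ratio between the libraries was -1.93. The WT-labelled Fos value in G2M, 1.20 against 0.241 in G1, includes the cell with 188 Fos UMIs, which also held 27 Fosb UMIs. The Cre-labelled G2M values of Fos (0.829) and Fosb (0.512), from 82 cells, include a cell with 66 Fos and 22 Fosb UMIs. The G2M values of Fos and Fosb therefore rest in part on single cells, and the phase order without them was not tested.

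Members were only loosely tied to each other across cells. The sole pair with a Spearman rho of at least 0.2 in both libraries was Fos with Fosb (0.20 and 0.27), and Junb with Jund reached 0.21 in the WT-labelled library and 0.12 in the Cre-labelled library. Among 4809 genes, those most like Jund were the actin gene Actb (0.29 and 0.32), the ubiquitin gene Ubb (0.26 and 0.27) and the thymosin gene Tmsb4x (0.25 and 0.25). For the members other than Fosb and Jund the closest genes were under 0.2 in at least 1 library before rounding and are named only: Nfkbia, the feedback inhibitor of NF-kB, for Junb, Btg2 for Fos, Bach2 for Fosl1, Ptpn22 for Fosl2, Malt1 for Jun, Actg1 for Batf and the histone gene Hist1h1b for Batf3. In these sparse counts such weak values are no finding.

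Among the other genes of the pathway, 7 of 71 at 20 CPM (9.86%) were past the size rule between the libraries, 4 higher and 3 lower, beside 4.35% of all genes. The pathway lists were chosen with earlier results of these data known, so the 2 shares are not independent. Of 32 genes found on a list of other leucine zipper and C/EBP-named genes, 19 reached 20 CPM. Of those, 0 were higher and 1 was lower, Cebpb, a C/EBP factor of inflammatory genes (85.9 against 40.8 CPM). Of the 2 IRF partners of BATF proteins, Irf8 was lower in the Cre-labelled library (338 against 154 CPM, log2 ratio -1.13), whereas Irf4 was at 337 and 462 CPM (0.45). Of 41 kinases and RAS pathway genes upstream of AP-1, 32 reached 20 CPM; 3 were higher and 0 lower. Those 3 were Map3k8, the TPL2 kinase that activates the ERK cascade (19.96 against 102 CPM), Map3k5, the ASK1 kinase (21.8 against 63.2 CPM), and Prkca, a PMA-responsive protein kinase C (63.9 against 149.96 CPM). Of 7 phosphatase and Sprouty family genes at 20 CPM, Spry1, an inhibitor of RAS signalling, was higher (37.7 against 137 CPM) and Dusp5, a nuclear ERK phosphatase, was lower (185 against 81.1 CPM). None of 11 regulators of Fos and Jun transcription or protein turnover was past the rule.

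Fos and Jun are also induced when tissue is dispersed, so stress genes and the barcodes left out were read as well. The stress list includes immediate early genes and both libraries were stimulated, so handling apart from stimulation was not tested. Over 15 stress genes at 20 CPM the median log2 ratio between the libraries was 0.032. Across thinned cells Spearman's rho with the summed stress list was 0.025 and -0.024 for Fos and 0.16 and 0.12 for Jun, weak values in sparse counts. Barcodes left out for a mitochondrial share above 10%, 112 and 36 with at least 500 genes, differed in their members. They were shallow, with a median of 3059.5 UMIs in the WT-labelled and 2950.5 in the Cre-labelled library, and the part of depth was not tested. In the Cre-labelled library they held 9.97-fold more Fosb (6.83 to 14.1), 4.92-fold more Fos (2.89 to 7.85) and 2.44-fold more Jun (1.77 to 3.28) per non-mitochondrial UMI than the cells kept. Those folds rest on 34, 18 and 44 UMIs. In the WT-labelled library the Fos ratio was 1.02 (0.437 to 2.02), but against kept cells without the Fos-rich ones it was 3.64 (1.55 to 7.36), and 10.1 (5.92 to 16.4) in the Cre-labelled library. In WT-labelled barcodes above the limit, Fosl2 was 2.98-fold higher (1.65 to 4.98), Fosl1 1.95-fold (1.27 to 2.87) and Jun 1.29-fold (1.03 to 1.61). Jund and Batf went the other way there, at ratios of 0.394 (0.283 to 0.535) and 0.503 (0.328 to 0.739). In the Cre-labelled library the intervals of Jund and Batf included no difference. The share of all genes that differed as much in these barcodes is not given. Without the mitochondrial limit the Batf3 log2 ratio between the libraries was -2.42, and the Fos log2 ratio was 0.46.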

How the data were processed

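The deposited values are raw UMI counts per gene and barcode, 1 matrix per library, made with the 10x 3′ kit per the labels' protocols, and carry the Cell Ranger version 7.0.0 in their headers; the submitters' processing notes name the mm10 build. No source used here states whether introns were counted. Barcodes were kept from 500 genes upward and up to 10% mitochondrial UMIs. The 12 multiplexing tags were kept out of totals. UMIs were summed per library and scaled to CPM. Log2 ratios add 1 CPM, which understates low genes, and folds do not. Intervals (95%) are exact Poisson for levels, Clopper-Pearson for shares and conditional binomial for ratios. Each group being 1 library, no test was possible. For work per cell, 14 and 11 cells below 5000 UMIs were left out. Phases and doublets came from scanpy 1.11.5 (Scrublet called 5 and 6, kept). The TGACG motif and the cutoff for Fos-rich cells were set after seeing the data. Named genes are the members, Nfatc1, cytokines, the 3 genes most like each member, and list genes past the size rule, otherwise the highest and lowest ratios. The members and lists were chosen with earlier results of these data known. Coordinates come from GENCODE M21. Single genes of the stress list, and its count past the size rule, are not reported here. Scripts were tested on simulated data. Alternatives changed pseudocount, floor, scaling (edgeR 4.0.16, R 4.3.3), cell filters, phase, thinning and cutoffs. Python 3.11.15 ran SciPy 1.17.1 and NumPy 2.4.6.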

Additional observations from a re-analysis of the deposited data

Results flagged for a closer look

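In 5 of 72 member-cytokine pairs the log2 ratio of cytokine-high to cytokine-low cells had opposite signs in the 2 libraries, with counting intervals apart from no difference in both. Over all genes at 20 CPM and the same 8 cytokines, 0.938% of pairs met that rule. The difference between the libraries was not tested, since each is 1 library. Jund was higher in Ifng-high cells of the WT-labelled library (0.42) and lower in those of the Cre-labelled library (-1.27). With Il17a it went the other way, -0.26 and 0.51. Jun with Il17f gave -0.60 and 0.27. Fos with Ccl3 gave 2.07 and -2.16, and Fosb with Ccl3 gave 0.63 and -1.39, and both rest on few cells. WT-labelled Ccl3-high cells held 94 thinned Fos UMIs, where the richest single cell of that library held 90. The share of WT-labelled cells with a Fos UMI was 3.01% in Ccl3-high and 2.98% in Ccl3-low cells. For Fosb it was 6.02% and 8.11%, lower in the Ccl3-high cells. The Ccl3 ratios without the Fos-rich cells are not given.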

How the results depend on the processing

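Batf3 kept its direction between the libraries under every alternative run, with log2 ratios from -3.05 (cells thinned to 5000 UMIs) to -1.93 (G1 cells only). It remained the sole member past the size rule; without the Fos-rich cells Fos, then under 20 CPM in both libraries, was 2.35-fold higher in Cre-labelled cells. The members' median moved to -0.16 in G1 cells and -0.14 with the cytokine genes out of the totals, where higher genes made up 61.8% of those past the rule instead of 52.3%. Without a floor 619 genes were past the rule, with a floor of 50 CPM 155, and with 20 CPM 243. Unthinned, 6 members had separate shares instead of 3, against 28.1% instead of 20.9% of all genes. With a cutoff of 1 UMI, 12 instead of 21 WT-labelled pairs were past 1.5-fold, and the Cre-labelled Il17a median was 0.16 instead of -0.20. Without the Fos-rich cells 24 instead of 37 Cre-labelled pairs were. With a cutoff of 10 UMIs, 2 members instead of 1 were past 2-fold in Il17a- Ifng- Il2+ cells. The shares of all genes at these other cutoffs, and without the Fos-rich cells, are not given. Signs turned at the 1 UMI cutoff for Fosl2 with Tnf (-0.16) and Fos with Ifng (1.94) in WT-labelled cells, and for Fos with Il17a (0.32), Il2 (0.38) and Tnf (-0.19) in Cre-labelled cells. They also turned for Fosl1 with Il2 at 2500 UMIs (-0.024 WT-labelled, -0.17 Cre-labelled) and for Fos with Il17a in WT-labelled G1 cells (0.80). Fos with Tnf turned in WT-labelled cells of all phases without the Fos-rich ones (-0.20). The cause was not tested. Depth limits Batf3 in Cre-labelled cells, which held 22 UMIs after thinning. No paired analysis was possible because each group has 1 library.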
